A study of Mus musculus with 24 samples.

Results

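The smooth muscle contractile genes are the 10 genes Myh11, Acta2, Actg2, Tagln, Cnn1, Des, Smtn, Mylk, Lmod1 and Myl9, chosen by name, and each was read through the probe sets that the array's annotation assigns to that gene alone. All 10 were on the array, with 15 of its 22644 probe sets, and all 15 passed the filter on dim probe sets, which left 20537 probe sets and 11597 genes. Left lungs of male mice aged 6 to 8 weeks were homogenized whole, and 1 mouse was hybridized to each of 24 Affymetrix MOE430A arrays, 3 mice in each of 8 groups. Tnfr-/- mice (B6.129S-Tnfrsf1a tm1Imx Tnfrsf1b tm1Imx/J) carry disrupted genes for both TNF receptors in every cell, so that no effect can be placed in the muscle itself, and Tnfr+/+ mice were C57BL/6J. Mice of each genotype breathed 0.3 ppm O3 without a break for 24, 48 or 72 h, or filtered air in another chamber. Each array was a separate animal, and the p-values below measure the spread between mice.

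Smooth muscle in the lung wraps the airways and the blood vessels and sets their width by contracting. Myosin heavy chain (Myh11) pulls on filaments of smooth muscle actin (Acta2, Actg2) once its regulatory light chain (Myl9) is phosphorylated by myosin light chain kinase (Mylk), while calponin (Cnn1), transgelin (Tagln), smoothelin (Smtn) and leiomodin (Lmod1) bind actin and desmin (Des) forms intermediate filaments. Many of these genes are known targets of serum response factor with its partner myocardin. Serum response factor binds the CArG box, a run of A and T bases between CC and GG. A whole lung homogenate holds this muscle as a small part beside epithelium, endothelium, fibroblasts, blood cells and the cardiac muscle that sheathes the pulmonary veins in mice. Fewer smooth muscle cells and less RNA per cell cannot be told apart in such samples.

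The promoters of Acta2 and Myl9 are shown because they were the only promoters found for the member genes that held a CArG box or a form of it with 1 mismatch in the 6 inner bases. RefSeq promoters of build GRCm38.p6 were found for 7 of the 10 genes (not for Myh11, Actg2 and Tagln). Both strands were searched from 250 bases before to 50 bases after the start used for each promoter. For Acta2, Cnn1, Myl9 and Mylk that start lies inside the gene span given below. The Mylk window, chr16:34784700-34784999, lies far inside it, so sequence before the outer end of that gene was not searched. The 250 bases before each start follow, 5′ to 3′ on the strand of the gene, at chr19:34255374-34255623 on the minus strand for Acta2 and chr2:156775214-156775463 on the plus strand for Myl9, with the CArG box and its 1-mismatch forms in capitals.
Acta2: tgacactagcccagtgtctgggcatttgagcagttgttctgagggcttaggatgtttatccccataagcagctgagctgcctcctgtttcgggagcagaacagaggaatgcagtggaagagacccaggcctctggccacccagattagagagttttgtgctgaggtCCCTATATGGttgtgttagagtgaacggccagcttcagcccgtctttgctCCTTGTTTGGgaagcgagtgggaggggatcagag
Myl9: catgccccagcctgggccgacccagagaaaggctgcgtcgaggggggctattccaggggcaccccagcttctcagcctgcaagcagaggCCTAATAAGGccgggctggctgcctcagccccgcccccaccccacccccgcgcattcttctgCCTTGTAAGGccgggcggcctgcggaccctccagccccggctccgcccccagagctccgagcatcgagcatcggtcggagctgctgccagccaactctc
The exact box of Myl9 begins 161 bases before the start and its 1-mismatch form 99 bases before it, and the Acta2 forms, each with 1 mismatch, begin 84 and 34 bases before the start. Of all 32851 promoters of this length, 1.63% held an exact box and 9.98% an exact box or a 1-mismatch form. A match describes these letters only.

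Signals below are MAS5 intensities after quantile normalization, and fold changes are differences of mean log2 signals from limma, fitted over all 24 arrays. A gene was called at a Benjamini-Hochberg adjusted p under 0.05 over all 20537 probe sets. The total deposited signal per array was between 14877000 and 16057700, and pairs of arrays correlated with r between 0.92 and 0.965. On the array of Tnfr+/+ O3 72 h replicate 1 the Gapdh 3′ to 5′ signal ratio was 4.45, against 0.890 to 1.74 on the others, and the mean correlation with the others was 0.927, against 0.943 to 0.954. Of the targeted genes, Tnfrsf1b (1418099_at) was between 151.5 and 266 in Tnfr-/- lungs, against 356 to 525 in Tnfr+/+ lungs, while its other probe set and the Tnfrsf1a probe set overlapped between the genotypes. Whether these probe sets lie in the disrupted part of the genes is not given in the sources used here.

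The mean signal of 9 of the 10 member genes lay between percentiles 60.7 and 97.3 of all probe sets, and that of Lmod1 at percentile 29.6. In Tnfr+/+ lungs 9 of 10 members had negative fold changes from air after 48 h and after 72 h of O3, of which Mylk was called at 48 h and Mylk and Myh11 at 72 h. In Tnfr-/- lungs no member was called at any time, 7 of 10 had positive fold changes after 48 h, and 8 of 10 had negative ones after 72 h. No member passed the test of the difference between the genotypes in the O3 effect. The brightest Mylk probe set was below its air values on every array at 48 and 72 h in both genotypes. Another, 1425505_at, was so in Tnfr+/+ lungs at both times and in Tnfr-/- lungs at 48 h only. The remaining Mylk probe set overlapped in each case.

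**Figure D1:**
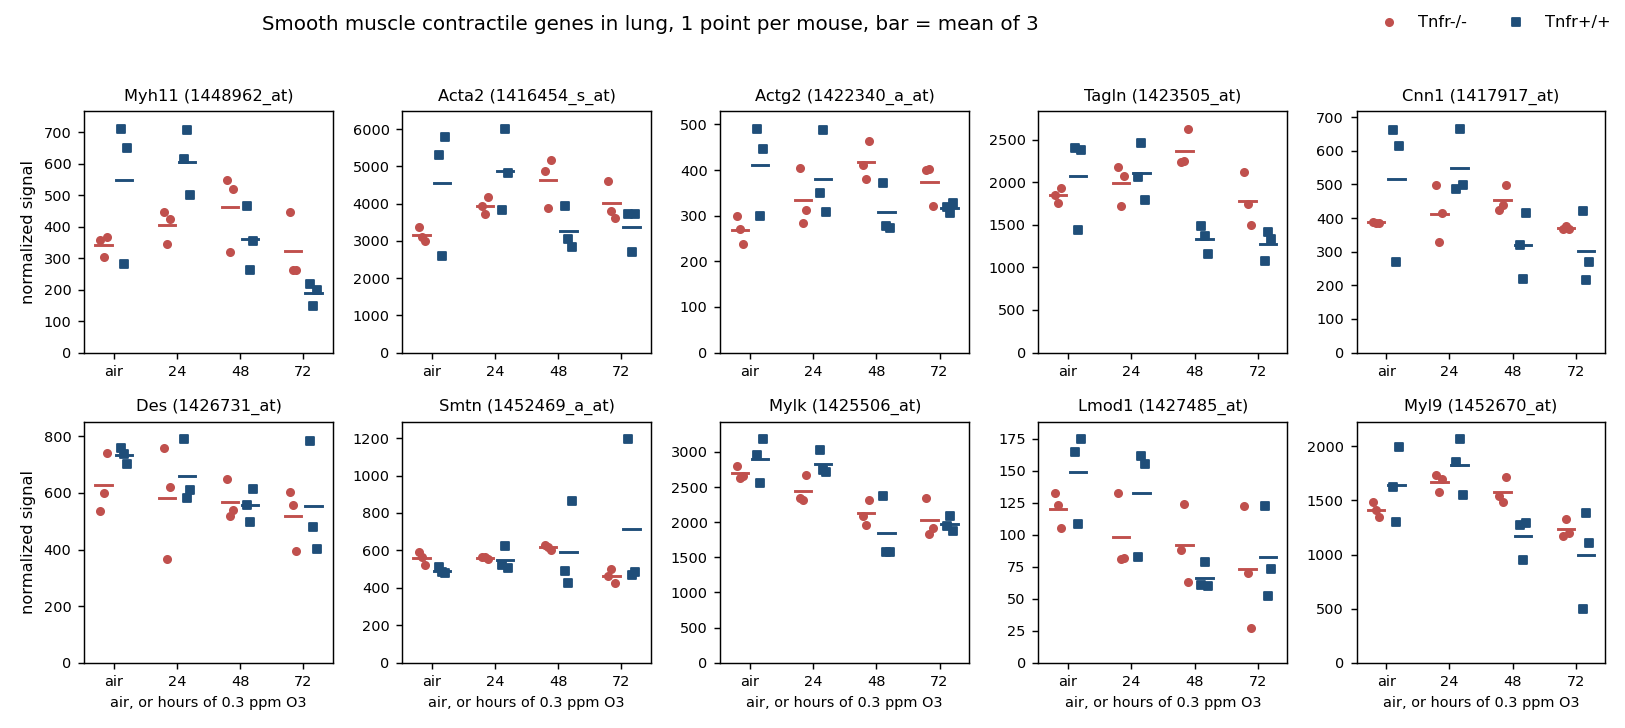
Normalized signal of each member gene (linear axis from 0) in air and by hours of 0.3 ppm O3 (24, 48, 72); points are single mice, Tnfr-/- to the left of Tnfr+/+, and bars are means of 3. All 12 Mylk points at 48 and 72 h lie below all 6 points in air, and the Tnfr+/+ points of Myh11 at 72 h, 149 to 217, lie below those in air, 283 to 709.5.

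Myh11, the motor of the thick filament and a specific marker of mature smooth muscle, lies at chr16:14194527-14292188 (GRCm38.p6). In Tnfr-/- lungs its signal was 359, 304.5 and 367 in air, 445, 344 and 426 after 24 h, 548, 321 and 519.6 after 48 h and 448, 261 and 264 after 72 h of O3. Tnfr+/+ lungs had 709.5, 283 and 651 in air, 615, 706 and 499 after 24 h, 466, 261 and 356 after 48 h and 217, 149 and 199.5 after 72 h of O3. The 3 Tnfr+/+ mice at 72 h were all below the 3 in air, while the groups overlapped at 24 and 48 h and at every time in Tnfr-/- mice. Among the Tnfr+/+ mice in air, replicate 2 read far below the other values.

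After 72 h the Myh11 signal of Tnfr+/+ lungs averaged 189 ± 35.3, against 548 ± 231 in air (SD, n = 3 each), with a log2 fold change of -1.45 (SE 0.316, limma adjusted p = 0.0163). At 48 h the log2 fold change was -0.53 (limma adjusted p = 0.568), or -0.95 without air replicate 2 (limma adjusted p = 0.191), and at 24 h it was 0.24 (limma adjusted p = 0.999). In Tnfr-/- lungs the log2 fold changes of Myh11 were 0.23, 0.40 and -0.13 at 24, 48 and 72 h, with limma adjusted p of 0.833, 0.553 and 0.89. The call at 72 h was lost without Tnfr+/+ air replicate 1 (limma adjusted p = 0.0778), air replicate 3 (0.0845) or O3 72 h replicate 2 (0.0505), and without air replicate 2 the log2 fold change was -1.87 (limma adjusted p = 0.00205). A second Myh11 probe set (1418122_at) was dim, between 5.38 and 75.6, and carried no call, and the mean of both probe sets gave -1.04 at 72 h (limma adjusted p = 0.204).

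Mylk, the kinase that phosphorylates the regulatory light chain, lies at chr16:34745199-35002436 and also encodes a long non-muscle form and telokin, a short form without kinase activity. Its brightest probe set read 2796, 2632 and 2663 in air, 2338, 2313 and 2669 after 24 h, 2092, 1960 and 2322 after 48 h and 2338, 1829 and 1920 after 72 h of O3, in Tnfr-/- lungs. Tnfr+/+ lungs had 2957, 2564 and 3179 in air, 3030, 2744 and 2719 after 24 h, 2369, 1574 and 1582 after 48 h and 1947, 2086 and 1873 after 72 h of O3. All 12 mice after 48 or 72 h, 1574 to 2369, were below all 6 mice in air, 2564 to 3179. Of all probe sets, 0.726% separated in this direction.

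Averaged over both genotypes and over 48 and 72 h of O3 (the late average), Mylk was 0.707 times its level in air, a log2 fold change of -0.50 (SE 0.0898, limma adjusted p = 0.00107), and its adjusted p stayed between 9.57e-05 and 0.0165 over the alternatives. In Tnfr+/+ lungs alone Mylk averaged 1842 ± 457 at 48 h, against 2900 ± 311 in air (SD, n = 3 each), and fell by 0.68 on the log2 scale (SE 0.147, limma adjusted p = 0.0256). At 72 h it fell by 0.55 in these lungs (SE 0.147, limma adjusted p = 0.0454). Both calls within Tnfr+/+ lungs were lost when single arrays were left out, the first without air replicate 1 (limma adjusted p = 0.0893), air replicate 3 (0.114) or O3 48 h replicate 2 (0.123) or 3 (0.106), and the second in 20 of the 24 fits that left out 1 array (limma adjusted p between 0.0504 and 0.166, the highest without air replicate 3). In Tnfr-/- lungs the log2 fold changes at 48 and 72 h were -0.35 and -0.42 (limma adjusted p = 0.208 and 0.132). The difference between the genotypes, Tnfr-/- minus Tnfr+/+, was 0.33 at 48 h and 0.14 at 72 h (95% confidence intervals -0.11 to 0.76 and -0.30 to 0.57).

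Mylk had 2 further probe sets. The one numbered 1425505_at gave a log2 fold change of -0.36 in the late average (limma adjusted p = 0.0379) and the one numbered 1425504_at gave -0.29 (limma adjusted p = 0.25). Neither separated all mice at 48 and 72 h from all mice in air, as the brightest did. Within Tnfr+/+ lungs 1425505_at did not overlap, lower, at 48 h (594 to 913, against 1036 to 1176) or at 72 h (787 to 944). Of all probe sets, 8.33% and 10.2% separated so. Within Tnfr-/- lungs it did not overlap, lower, at 48 h (701 to 764, against 769 to 999.9), beside 15.9%. In Tnfr-/- lungs 1425505_at read 769 to 999.9 in air and 571 to 848 after 72 h, and 1425504_at read 399 to 479 and 302 to 556. Which Mylk form each probe set reads is not given in the sources used here.

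Myl9, the regulatory light chain of smooth muscle myosin, lies at chr2:156775408-156781657. Its signal in Tnfr-/- lungs was 1482, 1412 and 1351 in air, 1736, 1575 and 1699 after 24 h, 1543, 1490 and 1713 after 48 h and 1170, 1332 and 1201 after 72 h of O3. The Tnfr+/+ mice gave 1628, 1297 and 1992 in air, 1852, 2065 and 1554 after 24 h, 1270, 951.5 and 1293 after 48 h and 499, 1380 and 1104 after 72 h of O3. The lowest Myl9 value was on the Tnfr+/+ 72 h array with the high Gapdh ratio, and the groups of Tnfr+/+ mice in air and at 72 h overlapped. The Tnfr-/- mice at 24 h were all above those in air, and the mice at 72 h all below. The log2 fold change at 72 h was -0.20 in Tnfr-/- lungs (limma adjusted p = 0.762) and -0.82 in Tnfr+/+ lungs (SE 0.256, limma adjusted p = 0.0883), which was -0.39 without replicate 1, the array with the high Gapdh ratio (limma adjusted p = 0.284), and -1.12 without replicate 2 (limma adjusted p = 0.0192).

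Acta2, the smooth muscle actin that pericytes and activated fibroblasts also make, lies at chr19:34240336-34255585. Its brightest probe set is of the _s_at kind, which can hybridize to several transcripts, so near-identical actins may share the signal. Tnfr-/- lungs read 3361, 3093 and 3008 in air, 3945, 3709 and 4177 after 24 h, 4879, 3870 and 5178 after 48 h and 4616, 3800 and 3623 after 72 h of O3. For Tnfr+/+ lungs the values were 5299, 2590 and 5800 in air, 3838, 5996 and 4826 after 24 h, 3929, 3060 and 2822 after 48 h and 3729, 2708 and 3719 after 72 h of O3. Every Tnfr-/- mouse after O3 was above the 3 Tnfr-/- mice in air, and Tnfr+/+ air replicate 2, at 2590, was the lowest value of all. The log2 fold change at 48 h was 0.55 in Tnfr-/- lungs (SE 0.244, limma adjusted p = 0.234) and -0.41 in Tnfr+/+ lungs (limma adjusted p = 0.568), or -0.77 without that air array (limma adjusted p = 0.101). A second Acta2 probe set (1456658_at) was dim, between 38.6 and 108, and carried no call. In Tnfr-/- lungs it did not rise with the brightest one. It read 68.2 to 88.1 in air, 57.6 to 108 after 24 h, 51.9 to 82.8 after 48 h and 46.8 to 57 after 72 h of O3.

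Actg2, the smooth muscle actin best known from the gut, lies at chr6:83512909-83536251. Its probe set (1422340_a_at) is not of the _s_at kind. Whether it also reads related actins is not given in the sources used here. Among Tnfr-/- mice it was 299, 271 and 237 in air, 404, 284 and 313.5 after 24 h, 411, 381 and 464 after 48 h and 400.1, 403 and 321 after 72 h of O3. Among Tnfr+/+ mice it was 489, 299.6 and 447 in air, 349, 487 and 308 after 24 h, 371, 278 and 273 after 48 h and 319.9, 305 and 329 after 72 h of O3. All 6 Tnfr-/- mice at 48 and 72 h were above the 3 Tnfr-/- mice in air, while the Tnfr+/+ groups overlapped. Actg2 in Tnfr-/- lungs averaged 419 ± 41.7 at 48 h, against 269 ± 31.1 in air (SD, n = 3 each). The log2 fold change at 48 h was 0.64 in Tnfr-/- lungs (SE 0.2, limma adjusted p = 0.0824) and -0.40 in Tnfr+/+ lungs (limma adjusted p = 0.459), or -0.62 without Tnfr+/+ air replicate 2 (limma adjusted p = 0.231).

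Tagln, which binds actin filaments and appears early in the smooth muscle lineage, lies at chr9:45929628-45936058. Tagln in Tnfr-/- lungs was 1854, 1756 and 1928 in air, 2183, 1722 and 2073 after 24 h, 2242, 2246 and 2621 after 48 h and 2114, 1746 and 1492 after 72 h of O3. The Tnfr+/+ values were 2397, 1436 and 2377 in air, 2065, 2466 and 1790 after 24 h, 1483, 1366 and 1156 after 48 h and 1071, 1412 and 1329 after 72 h of O3. After 48 h all 3 Tnfr-/- mice, 2242 to 2621, were above all 3 Tnfr+/+ mice, 1156 to 1483. That difference, a log2 fold change of 0.83 (SE 0.191, limma adjusted p = 0.109), did not pass the test, nor did the change from air in Tnfr+/+ lungs at 72 h (-0.68, SE 0.191, limma adjusted p = 0.061). Both passed without Tnfr+/+ air replicate 2, with limma adjusted p = 0.0429 and 0.0108. The difference between the genotypes at 48 h uses no air array. It stayed at 0.83 and only its SE fell, to 0.158, since the spread is estimated over all groups. The change from air at 72 h became -0.92 (SE 0.176).

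Cnn1, calponin, binds actin and slows the myosin motor, and lies at chr9:22099221-22109221. Cnn1 in Tnfr-/- lungs was 389.8, 386 and 386 in air, 498, 329 and 414 after 24 h, 424, 440.2 and 499 after 48 h and 367, 377.5 and 367 after 72 h of O3. In lungs of Tnfr+/+ mice it was 661, 269 and 615 in air, 486, 664 and 498 after 24 h, 321, 219.6 and 415 after 48 h and 420.1, 217 and 269 after 72 h of O3. The 3 Tnfr-/- mice in air lay close together, while the 3 Tnfr+/+ mice in air spanned 269 to 661. The log2 fold change at 72 h was -0.06 in Tnfr-/- lungs (limma adjusted p = 0.947) and -0.72 in Tnfr+/+ lungs (SE 0.297, limma adjusted p = 0.203). Without Tnfr+/+ air replicate 2 the change in Tnfr+/+ lungs was -1.14 (limma adjusted p = 0.0323).

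Smtn, an actin-binding protein of contractile smooth muscle, lies at chr11:3517522-3539292. Tnfr-/- mice had Smtn signals of 591, 567 and 521 in air, 564, 565 and 555 after 24 h, 627, 619.7 and 601 after 48 h and 465, 501 and 427 after 72 h of O3. Tnfr+/+ mice had 508.5, 485 and 481 in air, 524, 622 and 507 after 24 h, 487, 426 and 865 after 48 h and 1193, 468 and 483 after 72 h of O3. The second highest value, 865, came from Tnfr+/+ O3 48 h replicate 3, where the summed signal of 10 cartilage markers was 2357. The highest value, 1193, came from the Tnfr+/+ 72 h array with the high Gapdh ratio. On it the cartilage sum was 4595, against 1912 to 2684 on the other arrays. The sum of 11 skeletal muscle markers on it was 2934, against 1281 to 2047. Such sums weigh the brightest genes most. The mean log2 signal of the skeletal list was 7.14 on it, near the 7.12 of Tnfr+/+ air replicate 2. That of the cartilage list was 7.65, against at most 7.28 on the other arrays. The part of either list in the Smtn value was not tested. The other mice of that group, at 468 and 483, lay within the range of the Tnfr+/+ mice at 48 h, and the log2 fold change from air at 72 h was 0.39 with that array and -0.05 without it (limma adjusted p = 0.488 and 0.949). All 3 Tnfr-/- mice at 72 h were below the 3 in air, with a log2 fold change of -0.27 (limma adjusted p = 0.679).

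Lmod1, which nucleates actin filaments in smooth muscle, lies at chr1:135324813-135368065 and was dim. Its Tnfr-/- values were 132.5, 123 and 105 in air, 132, 80.7 and 82 after 24 h, 88.2, 124 and 62.7 after 48 h and 123, 70.1 and 27.1 after 72 h of O3. Its Tnfr+/+ values were 165, 108 and 174 in air, 82.2, 161 and 155 after 24 h, 60.9, 78.3 and 59.6 after 48 h and 122.5, 52.4 and 72.8 after 72 h of O3. Averaged over both genotypes it fell by 0.87 on the log2 scale after 48 and 72 h (SE 0.266, limma adjusted p = 0.039), the other member called in that comparison. That call was lost in 11 of the 24 fits that left out 1 array, among them any Tnfr-/- air array (limma adjusted p between 0.0532 and 0.102 over the 11, the highest without Tnfr+/+ air replicate 3).

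Des, the intermediate filament protein that cardiac and skeletal muscle share, lies at chr1:75360292-75368579. Des signals in Tnfr-/- lungs were 537.5, 601 and 742 in air, 759, 365 and 620.2 after 24 h, 651, 517 and 539.6 after 48 h and 603.5, 557 and 393 after 72 h of O3. Des signals in Tnfr+/+ lungs were 761, 738 and 703 in air, 789.6, 583 and 611 after 24 h, 556.5, 499 and 616 after 48 h and 782, 479.6 and 401 after 72 h of O3. The Tnfr-/- groups overlapped with air at every time, and so did the Tnfr+/+ groups at 24 and 72 h. All 3 Tnfr+/+ mice at 48 h, 499 to 616, were below all 3 in air, 703 to 761, with a log2 fold change of -0.40 (limma adjusted p = 0.604). A second Des probe set read 188 to 369 and carried no call.

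Counted over the 10 members, 24 h of O3 gave no call in either genotype with limma or with the methods' t-test, and no unadjusted p under 0.05. In Tnfr-/- lungs 0.726% of all probe sets were called higher and 0.375% lower at 24 h (6.3% and 6.21% before adjustment), and the Acta2 and Myl9 groups did not overlap, higher, as for 10.8% of all probe sets. In Tnfr+/+ lungs 0.0682% were called higher and 0.0146% lower at 24 h (3.18% and 2.71% before adjustment).

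After 48 h, 0 of 10 members were called in Tnfr-/- lungs by limma or the methods' t-test, where 2.6% of all probe sets were called higher and 1.24% lower. Before adjustment, Acta2 and Actg2 had a p under 0.05, higher, and Mylk, lower, as did 9.45% and 8.95% of all probe sets. The groups did not overlap for 6 members that were higher (Acta2, Actg2, Tagln, Cnn1, Smtn and Myl9), beside 15.6% of all probe sets, and for 1 that was lower (Mylk), beside 15.9%. In Tnfr+/+ lungs 1 of 10 was called lower and 0 higher at 48 h, beside 0.273% and 0.901% of all probe sets, and 4 members (Des, Mylk, Lmod1 and Myl9) did not overlap, lower, beside 8.33%. Before adjustment 4 (Tagln, Cnn1, Mylk and Lmod1) had a p under 0.05 there, lower, beside 5.57%. The median log2 fold change of the members at 48 h was 0.19 in Tnfr-/- lungs and -0.50 in Tnfr+/+ lungs, while over all genes it was -0.063 and -0.018.

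After 72 h, 0 of 10 members were called in Tnfr-/- lungs by limma or the methods' t-test, where 2.6% of all probe sets were called higher and 1.36% lower. Before adjustment Actg2, higher, and Mylk and Lmod1, lower, had a p under 0.05, as did 8.49% and 8.52% of all probe sets. The groups did not overlap for 2 that were higher (Acta2 and Actg2; 12.6% of all probe sets) and 4 that were lower (Cnn1, Smtn, Mylk and Myl9; 13.4%). In Tnfr+/+ lungs 2 of 10 were called lower and 0 higher at 72 h, beside 1.26% and 1.84% of all probe sets, and 3 (Myh11, Tagln and Mylk) did not overlap, lower, beside 10.2%. Before adjustment 6 (Myh11, Tagln, Cnn1, Mylk, Lmod1 and Myl9) had a p under 0.05 there, lower, beside 9.28%. The member median at 72 h was -0.16 in Tnfr-/- lungs and -0.62 in Tnfr+/+ lungs, against -0.059 and -0.023 over all genes. The times of a genotype share 3 air arrays, and without Tnfr+/+ air replicate 2 the Tnfr+/+ medians were -0.77 at 48 h and -0.82 at 72 h, with Tagln and Mylk called lower at 48 h and Myh11, Tagln and Cnn1 at 72 h. With the arrays of the comparison alone, or by the methods' t-test, 0 members were called in Tnfr+/+ lungs at 48 and 72 h.

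With both genotypes averaged, 2 of 10 members, Mylk and Lmod1, were called lower and 0 higher after 48 and 72 h, beside 5.65% and 6.51% of all probe sets. Before adjustment Myh11 and Myl9 joined them with a p under 0.05, lower, beside 13.7%. Without Tnfr+/+ air replicate 2 there were 5, with Myh11, Tagln and Cnn1 added. For the fits without that array the share of all probe sets called is not given here.

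**Figure D2:**
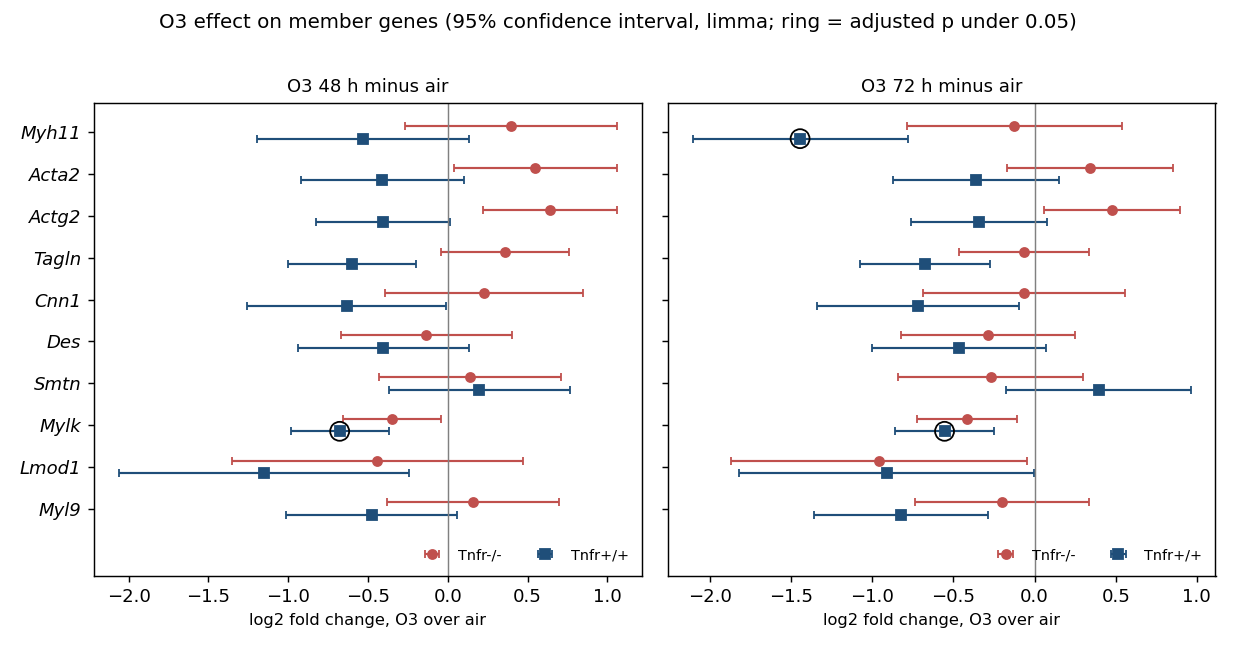
Log2 fold change of each member gene, O3 over air, at 48 h (left) and 72 h (right), with 95% confidence intervals from limma; red circles are Tnfr-/- and blue squares Tnfr+/+, and rings mark an adjusted p under 0.05. The ringed points are Mylk at both times and Myh11 at 72 h, all in Tnfr+/+ lungs.

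The genotypes were also compared at each exposure. In air 9 of 10 members had lower means in Tnfr-/- than in Tnfr+/+ lungs, with a median log2 fold change of -0.26, and none was called by limma or the methods' t-test (0.0536% of all probe sets were called higher and 0.0341% lower). Without Tnfr+/+ air replicate 2 that median was -0.44, with Myh11 at -0.99 and Acta2 at -0.81 (limma adjusted p = 0.364 and 0.208), against -0.57 and -0.45 with it. Actg2 had the lowest p of them, the only one under 0.05 before adjustment (log2 fold change -0.59, SE 0.2, limma adjusted p = 0.439), as did 3.62% of all probe sets in that direction. Its groups did not overlap (lower; 7.54% of all probe sets), nor did those of Smtn (higher; 7.82%). After 24 h of O3 no member was called (0.584% higher and 0.419% lower) or had an unadjusted p under 0.05 (7.07% and 6.98%), and Myh11 and Mylk did not overlap, lower, beside 11.1% of all probe sets.

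At 48 h the log2 fold changes of all 10 members between the genotypes were positive, with a median of 0.43 against -0.043 over all genes, and none was called by limma or the methods' t-test (0.0974% higher and 0.0682% lower). Actg2 and Tagln had a p under 0.05 before adjustment, as did 5.74% of all probe sets in that direction, and Actg2, Tagln, Cnn1 and Myl9 did not overlap, higher, beside 9.96%. At 72 h 7 of 10 were positive and none was called (0.117% higher and 0.0438% lower). Myh11 (log2 fold change 0.75, SE 0.316, limma adjusted p = 0.394) and Tagln (0.48, SE 0.191, limma adjusted p = 0.368) had a p under 0.05 before adjustment, beside 5.81% of all probe sets, and did not overlap, higher, beside 6.14%. Averaged over exposures no member was called (3.17% higher and 2.47% lower), and Tagln alone had an unadjusted p under 0.05 (0.28, SE 0.0957, limma adjusted p = 0.0904), beside 11.5% of all probe sets.

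The difference of the O3 effects, Tnfr-/- minus Tnfr+/+, tests whether the genotypes responded unequally. At 24 h it was positive for 5 of 10 members (7 of 10 without Tnfr+/+ air replicate 2), and none was called (0.00974% of all probe sets higher and 0% lower) or had an unadjusted p under 0.05 (3.1% and 3.13%). At 48 h it was positive for 9 of 10 members, with a median of 0.79, and 0 members and 0% of all probe sets were called. Acta2, Actg2 and Tagln had a p under 0.05 before adjustment at 48 h, beside 2.82% of all probe sets in that direction. At 72 h it was positive for 8 of 10, with a median of 0.62, and none was called (0.00487% higher), while Myh11, Actg2 and Tagln had a p under 0.05 before adjustment, beside 2.68%. The methods' t-test called 0 members at each of the 3 times.

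Actg2 at 48 h had a difference of 1.04 in log2 fold change (95% confidence interval 0.45 to 1.64, limma adjusted p = 0.682), with adjusted p between 0.223 and 0.987 over the alternatives. Tagln had 0.96 (0.39 to 1.53, limma adjusted p = 0.691) and Acta2 0.96 (0.24 to 1.68, limma adjusted p = 0.804). At 72 h Myh11 had 1.32 (0.38 to 2.26, limma adjusted p = 0.872). This contrast uses all air arrays of both genotypes, and without Tnfr+/+ air replicate 2 these values were 1.26 for Actg2, 1.21 for Tagln, 1.32 for Acta2 and 1.74 for Myh11, with limma adjusted p = 0.323, 0.216, 0.259 and 0.47.

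**Figure D3:**
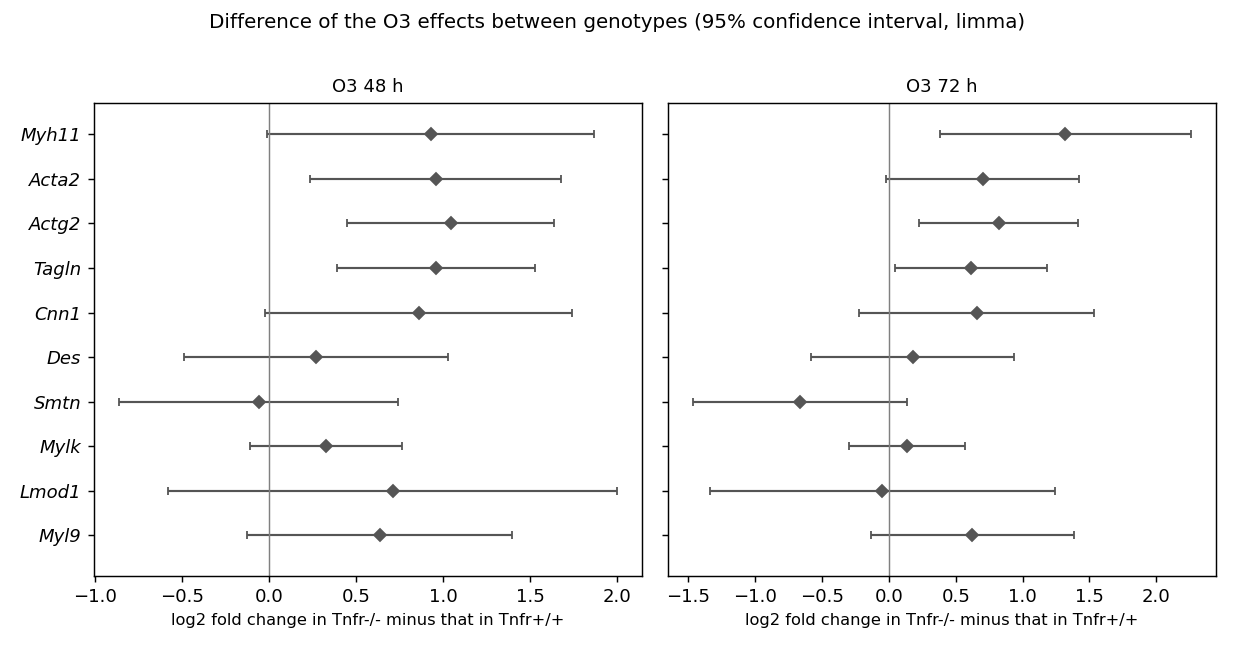
Difference between genotypes of the log2 fold change from air (Tnfr-/- minus Tnfr+/+) at 48 h (left) and 72 h (right), with 95% confidence intervals from limma. The intervals of Acta2, Actg2 and Tagln at 48 h and of Myh11, Actg2 and Tagln at 72 h lie above 0 without adjustment, and no adjusted p was under 0.05.

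Tnfr+/+ air replicate 2 stood apart in these genes. On it 1 of 10 members was above the group mean, against 10 and 8 on the other arrays of the group, and the members' mean log2 deviation from the group mean was -0.42. On that array the summed signal of 18 cardiac muscle markers was also low, 9262, against 19510 and 18470 on the other Tnfr+/+ air arrays. The sum of 16 fibroblast markers was 50400, against 56440 and 53030, and that of 19 endothelial markers 68180, against 60240 and 60220. Elsewhere the member and cardiac sums could part. Tnfr-/- air replicate 3 had the lowest cardiac sum of all, 6687, with a member sum of 11310, against 11800 and 11150 in its group. Tnfr+/+ O3 72 h replicate 1 had a cardiac sum of 16090, against 8749 and 9597, with a member sum of 10300, against 9256 and 9780. Among the 18 cardiac markers Trdn was dim, between 4.79 and 67.1 over all arrays, while Myh6, the atrial myosin heavy chain, ranged between 358 and 1839.

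Over all exposures the summed cardiac signal was 6687 to 13220 in Tnfr-/- lungs and 8140 to 19510 in Tnfr+/+ lungs. Averaged over exposures, 8 of 18 cardiac markers were called lower in Tnfr-/- lungs and 0 higher, beside 2.47% and 3.17% of all probe sets. They were led by Mb, myoglobin (log2 fold change -1.15, limma adjusted p = 0.0107), Tnnc1 and Tnni3, of the cardiac troponin complex (-0.57 and -0.66, limma adjusted p = 0.0149 and 0.0207), and Csrp3 (-0.61, limma adjusted p = 0.022). From air, their median log2 fold change was -0.43 and -0.47 in Tnfr-/- lungs and -0.44 and -0.40 in Tnfr+/+ lungs after 48 and 72 h, with 0 of 18 called at either time. In the late average Tnnc1, Mb and Tnnt2 were called lower (-0.55, -0.93 and -0.71, limma adjusted p = 0.0255, 0.0483 and 0.0488), as were 5.65% of all probe sets. The part of cardiac muscle in the member results, Des among them, was not tested.

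**Figure D4:**
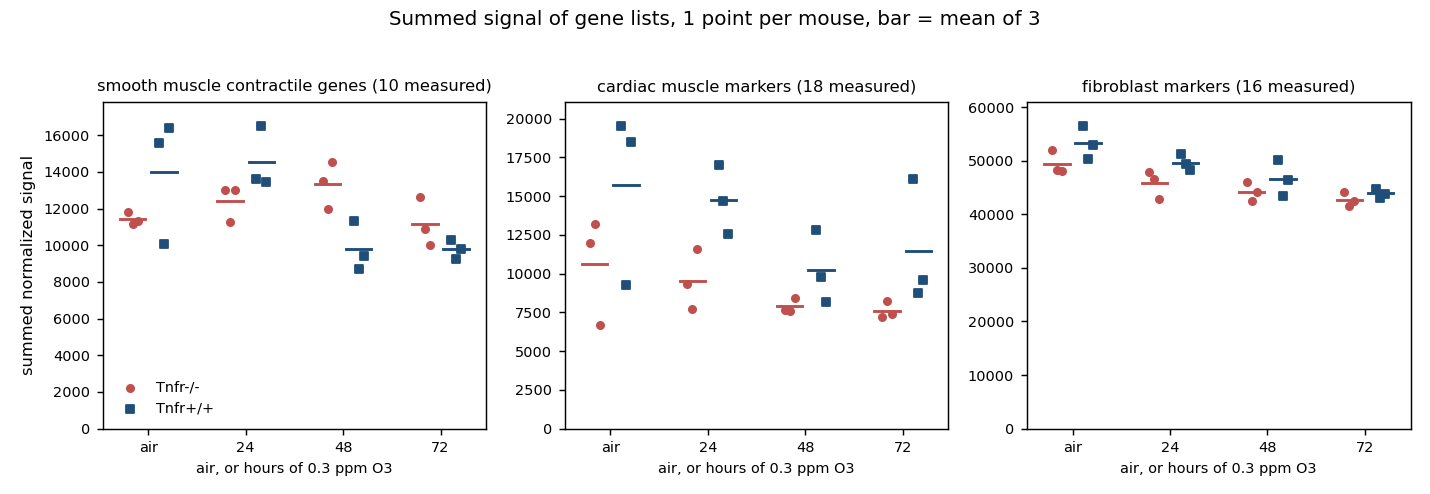
Summed normalized signal (linear axis from 0) of the 10 member genes, 18 cardiac muscle markers and 16 fibroblast markers, in air and by hours of 0.3 ppm O3; points are mice, Tnfr-/- left of Tnfr+/+, and bars are means of 3. The Tnfr+/+ air mouse with the lowest member sum of its group, 10070, also has the lowest cardiac sum of that group, 9262. The lowest cardiac sum of all, 6687 in a Tnfr-/- air mouse, goes with a member sum of 11310, between the others of its group.

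Within groups the members varied together in part. Over the 24 arrays with the group means subtracted, 39 of 45 pairs of members had a positive Pearson r, with a median of 0.349, and in two-sided permutation tests within groups 6 pairs passed Benjamini-Hochberg over the 45 pairs by Pearson's r and 8 by the Spearman coefficient. Myh11 with Acta2 had Pearson's r = 0.84 and a Spearman coefficient of 0.84 (adjusted permutation p = 0.0245 and 0.0183), and r was 0.74 without the 2 arrays farthest from the median. Actg2 with Tagln had r = 0.791 and a Spearman coefficient of 0.737 (adjusted permutation p = 0.0182 and 0.0183), and r was 0.70 without 2 arrays. Acta2 with Actg2 had r = 0.761 and a Spearman coefficient of 0.734 (adjusted permutation p = 0.0245 and 0.0183; 0.696 without 2 arrays), although these near-identical actins may share signal. Myh11 with Actg2 had r = 0.731 and a Spearman coefficient of 0.684 (adjusted permutation p = 0.0182 and 0.0238; 0.642 without 2 arrays). Myh11 with Cnn1 had r = 0.725 and a Spearman coefficient of 0.642 (adjusted permutation p = 0.0453 and 0.0497; 0.634 without 2 arrays).

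Cnn1 with Smtn had r = 0.616 and a Spearman coefficient of 0.576 (adjusted permutation p = 0.0453 and 0.062; 0.68 without 2 arrays), past the test by Pearson's r only. Past it by the Spearman coefficient only were Myh11 with Mylk (0.677, adjusted permutation p = 0.0497, with r = 0.65), Actg2 with Cnn1 (0.636, adjusted permutation p = 0.0496, with r = 0.628) and Actg2 with Myl9 (0.579, adjusted permutation p = 0.0497, with r = 0.345). Without 2 arrays r was 0.607, 0.475 and 0.232 for these 3 pairs. The lowest pair was Smtn with Myl9, r = -0.514 and a Spearman coefficient of -0.087 (adjusted permutation p = 0.592 for r), and r was -0.251 without 2 arrays. The points of a pair share the array, its normalization and the makeup of the lung sampled.

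**Figure D5:**
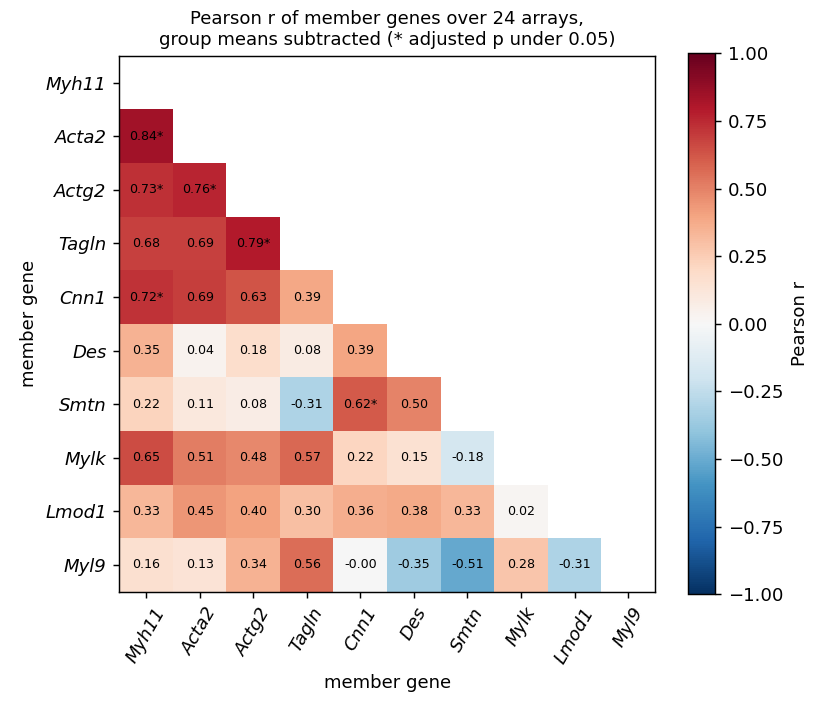
Pearson r of each pair of member genes over 24 arrays after the group means were subtracted; the colour runs from blue (-1) to red (1), and stars mark an adjusted permutation p of Pearson's r under 0.05. The starred pairs lie among Myh11, Acta2, Actg2, Tagln and Cnn1, with Cnn1 and Smtn as the other, and Smtn with Myl9, at -0.514, is the lowest.

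The genes whose log2 values followed the mean standardized value of the members most closely over the 24 arrays, members left out, were Pfn2, a profilin (r = 0.753), Armcx1 (0.737), Tbc1d19 (0.732), Sh3bgr (0.717), Fstl1 (0.71), Slc12a2 (0.708), Nlk (0.703), Aspn (0.701), Vcl, which encodes vinculin (0.7), and Slc41a2 (0.679). After the group means were subtracted they were Gja1, which encodes a connexin of gap junctions (r = 0.869), Tmem30b (0.835), Slc19a2 (0.833), Lysmd3 (0.832), Acvr2a (0.83), Thoc1 (0.819), Lamp2 (0.812), Matn2 (0.811), Qtrt2 (0.803) and Scn8a (0.783). These values describe 24 arrays that share normalization and tissue makeup, and carry no p.

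Of the other genes of the contractile program, 13 measured transcription regulators (Srf, Myocd and others) had no call after 48 or 72 h in either genotype, and Mef2c, a muscle transcription factor also made in endothelium, was called lower in the late average (log2 fold change -0.67, limma adjusted p = 0.0026). Among 22 filament and dense plaque partners, Tpm1, a tropomyosin, was called higher in Tnfr-/- lungs at 48 h (0.58, limma adjusted p = 0.0344) and Fhl1, a LIM protein of muscle, lower at 72 h (-0.37, limma adjusted p = 0.0411). In the late average 1 of the 22 was called higher, Tpm1 (0.32, limma adjusted p = 0.0262), and 3 lower, Fhl1, Ablim1, an actin-binding LIM protein, and Fermt2, a kindlin of focal adhesions (-0.31, -0.49 and -0.25, limma adjusted p = 0.00199, 0.00824 and 0.0238). Of all probe sets, 6.51% were called higher and 5.65% lower there. Averaged over exposures, Myl6, the essential light chain of myosin, was called higher in Tnfr-/- than in Tnfr+/+ lungs (0.36, limma adjusted p = 0.0398) and Palld, palladin, lower (-0.43, limma adjusted p = 0.00982). In Tnfr+/+ lungs at 72 h the medians of the regulators and of the filament partners were -0.11 and -0.24, beside -0.62 for the members and -0.023 for all genes.

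Among 12 non-muscle paralogs, Myl12b, a non-muscle regulatory light chain, was called lower in Tnfr+/+ lungs at 72 h (log2 fold change -0.46, limma adjusted p = 0.0339). In the late average, where 6.51% of all probe sets were called higher and 5.65% lower, Actg1, a cytoplasmic actin, was called higher (0.25, limma adjusted p = 0.0162). Myl12b, Myh14 and Cnn3 were called lower there (-0.37, -0.42 and -0.22, limma adjusted p = 0.00159, 0.00888 and 0.0438). Of 19 channels and receptors, Ptgir, the prostacyclin receptor, was called higher in Tnfr+/+ lungs at 72 h (0.70, limma adjusted p = 0.0481), and Gucy1b1, a subunit of the nitric oxide receptor, lower (-0.61, limma adjusted p = 0.0269). Atp2a2, the calcium pump of the sarcoplasmic reticulum, was called higher in Tnfr-/- lungs at 72 h (0.58, limma adjusted p = 0.00465). In the late average Ptgir and Atp2a2 were called higher (0.56 and 0.28, limma adjusted p = 0.00334 and 0.011) and Gucy1b1 lower (-0.42, limma adjusted p = 0.004), and averaged over exposures Gucy1b1 was called higher in Tnfr-/- than in Tnfr+/+ lungs (0.34, limma adjusted p = 0.0108).

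Markers of other lung cells gave these calls beside the members. Of all probe sets, 5.65% were called lower and 6.51% higher in the late average, and 3.17% higher between genotypes averaged over exposures. The shares called lower in Tnfr-/- and Tnfr+/+ lungs were 1.24% and 0.273% at 48 h, and 1.36% and 1.26% at 72 h. Of 10 pericyte markers, Heyl, a Notch target, was called lower in Tnfr+/+ lungs at 72 h (log2 fold change -0.73, limma adjusted p = 0.0139). Of 19 endothelial markers 3 (Cdh5, Kdr and Robo4) were called lower in Tnfr+/+ lungs at 72 h, with Cdh5, which encodes the cadherin of endothelial junctions, at -0.70 (limma adjusted p = 0.00679), and Kdr, a VEGF receptor, was called lower in Tnfr-/- lungs at 72 h (-0.86, limma adjusted p = 0.00135). At 48 h Kdr was called lower in Tnfr-/- lungs (-0.80, limma adjusted p = 0.00269) and Cdh5 in Tnfr+/+ lungs (-0.59, limma adjusted p = 0.0362). In the late average 5 endothelial markers were called lower, led by Kdr, Cdh5, Tie1 and Tek (-0.63, -0.53, -0.48 and -0.46, limma adjusted p = 9.1e-05, 0.000314, 0.0122 and 0.0156), and averaged over exposures Emcn and Car4 were called higher in Tnfr-/- than in Tnfr+/+ lungs (0.52 and 0.35, limma adjusted p = 0.025 and 0.0471). Of 16 fibroblast markers Dpt and Thy1 were called lower in Tnfr-/- lungs at 48 h (-0.82 and -0.64, limma adjusted p = 0.00776 and 0.0292), and in the late average 5 were called lower, led by Dpt, Thy1, Tcf21 and Inmt (-0.57, -0.37, -0.45 and -0.32, limma adjusted p = 0.00113, 0.0178, 0.028 and 0.0372). Of 11 airway epithelium markers Tppp3, found in ciliated cells, was called lower at 72 h in Tnfr-/- lungs (-0.84, limma adjusted p = 0.039) and in Tnfr+/+ lungs (-1.26, limma adjusted p = 0.00367), and at 48 h in Tnfr-/- lungs (limma adjusted p = 0.0139). In the late average Tppp3 and Cyp2f2, of club cells, were called lower (-0.95 and -0.22, limma adjusted p = 0.000119 and 0.0246) and Muc5b, a mucin, higher (0.49, limma adjusted p = 0.0431).

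Of 11 skeletal muscle markers and 10 cartilage markers none was called at 48 or 72 h in either genotype by limma. The lowest p of these lists were those of Myh2 and Atp2a1, a fast myosin heavy chain and a calcium pump of skeletal muscle, in Tnfr-/- against Tnfr+/+ lungs in air (log2 fold change -1.31, limma adjusted p = 0.334) and at 72 h (-0.61, limma adjusted p = 0.264), and of Matn3 and Hapln1, of cartilage matrix, at 24 h (-1.24, limma adjusted p = 0.121) and averaged over exposures (-0.75, limma adjusted p = 0.234). In Tnfr+/+ lungs at 72 h the median log2 fold change was -0.44 for endothelial markers, -0.35 for airway epithelium, -0.29 for pericytes and -0.28 for fibroblasts, beside -0.62 for the members. Their part in the member results was not tested.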

How the data were processed

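The authors hybridized left lung RNA to MOE430A arrays and deposited 1 intensity per probe set and array, a linear MAS5 signal credited in the submitters' processing notes to Affymetrix Expression Console; versions are not given in the sources used here. For this report the 24 arrays were quantile normalized, set to a floor of 1 and taken to log2. Probe sets that reached the 20th percentile of at least 1 array were kept (20537), and 64 control probe sets were left out. limma 3.58.1 in R 4.3.3 (lmFit, eBayes) fitted a mean for each of the 8 groups (16 residual and 2.38 prior degrees of freedom), with 15 comparisons and Benjamini-Hochberg adjustment over all probe sets kept. The array annotation, which can be old, gave 1 gene for 20338 probe sets, several for 691 and none for 1551. Where a gene had several probe sets, the brightest by mean log2 stood for it. The number of arrays, 3 a group, limits the precision. Pairs of members were tested with 1e+05 permutations within groups (scipy 1.17.1). The fit was tested on simulated data.

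The text names every member, genes of 12 other lists (1 of them is not reported here) called in a comparison, in order of adjusted p and at most 4 a list and comparison (where none was called, the 2 with the lowest p), and the 10 genes most like the members. Members and lists were chosen with earlier results of these data known. The alternatives were the values as deposited, cyclic loess, other filters and floors, the arrays compared alone, array weights, a replicate block, the methods' t-test and unadjusted p (under 0.01 for O3 and 0.05 between genotypes), the mean of a gene's probe sets and each array left out in turn. The t-test was called at an adjusted p under 0.05, and the unadjusted p were those of limma. For genotypes after O3 the paper used a 2-way ANOVA, which was not run here.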

Additional observations from a re-analysis of the deposited data

How the results depend on the processing

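Without Tnfr+/+ air replicate 2 and O3 72 h replicate 1 together (chosen after seeing the data), 3 members were called in Tnfr+/+ lungs at 48 h, 1 in Tnfr-/- lungs at 48 h and 1 between genotypes at 48 h, and 6 in the late O3 comparison averaged over genotypes. At 72 h in Tnfr+/+ lungs that fit newly called Tagln and Cnn1 (limma adjusted p = 0.0353 and 0.006) and lost Mylk (0.0904). Except for the replicate block, the counts of members called in this section are given without the share of all probe sets called. Of 150 values of members and comparisons under 37 alternatives, 5535 could be computed: 5436 kept their side of the threshold, 53 called values were no longer called, 46 were newly called, and 0 called values changed sign (152 uncalled values did). The causes were not tested.

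With the arrays of the comparison alone or the methods' t-test, 0 members were called in Tnfr+/+ lungs at 48 and 72 h, and the same 0 came from the mean of a gene's probe sets. In the late O3 comparison averaged over genotypes, the arrays alone gave 1, the methods' t-test 1 and a filter at the median of an array, which removes Lmod1, 1. The values as deposited, cyclic loess and no filter gave 1 at 72 h. Array weights gave 3 at 48 h and 4 at 72 h in Tnfr+/+ lungs, 1 at each time in Tnfr-/- lungs, 1 between genotypes at 48 h and 6 for late O3. The methods' unadjusted p gave 2 and 4 in Tnfr+/+ lungs at 48 and 72 h, 1 in Tnfr-/- lungs at 48 h, 1 between genotypes in air, 2 at 48 h and 2 at 72 h, 3 at 48 h and 3 at 72 h for the difference of O3 effects, and 1 averaged over exposures. Leaving out single arrays gave 0 to 2 in Tnfr+/+ lungs at 48 h, 0 to 3 at 72 h, 0 to 1 between genotypes at 48 h and 1 to 5 for late O3. The deposited values gave 4 pairs of members, against 6.

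The replicate numbers did not pair the arrays: 84 pairs of arrays with the same number correlated with a mean r of 0.00715 (-0.181 to 0.115), and 9 of 24 arrays correlated best with their own number. With the replicate block 1 and 2 members were called in Tnfr+/+ lungs at 48 and 72 h, as without it, and 591 of all probe sets at 72 h, against 636 without the block. The dim probe sets of Lmod1 (SE 0.434 in a comparison of 3 mice with 3) and the second of Myh11 (0.871) were the least precise, and 3 arrays a group limit every comparison.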
